A study of Mus musculus with 27 samples.

Results

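Chromosome 14 carries 797 genes with a row on the array that names a single gene. Of these, 453, the members described here, reached a mean log2 level of 5.79 over the tumours. A member is a gene that the mouse reference (RefSeq, GRCm38.p6) places on chromosome 14, represented by its row with the highest mean among the rows that name a single gene. The limit of 5.79 is the median over all rows of the row mean, and the 344 chromosome 14 genes below it were left out. In all, 22180 genes had a row on the array that named them alone. Within the chromosome, position and mean level chose the members. The chromosome itself was taken up with its low values in P803 and P912 already known. Of the members, 422 were protein coding, 15 were long non-coding RNAs, 5 were microRNAs, 3 were small nucleolar RNAs and 3 were V segments.

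The samples were 27 prostate tumours from transgene-positive F2 males of a cross between C57BL/6-Tg(TRAMP)8247Ng/J and PWK/PhJ, with 1 array per tumour and 1 group in all. TRAMP mice carry the early region of the virus SV40, which encodes the T antigens, under the probasin promoter, which is active in prostate epithelium. PWK/PhJ is a wild-derived inbred strain. Transgene-negative sires were mated with transgene-positive dames, and the tumours came from transgene-positive sons. No normal prostate or transgene-negative control was analysed here. Tumours were scored at 30 weeks unless a humane endpoint came earlier, and no label states how old each animal was. The F2 animals differ in which strain they inherited at each locus, and probes matched to the C57BL/6 sequence can bind PWK/PhJ transcripts less well. Genotypes were not analysed here.

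Mouse chromosome 14 holds Rb1, whose protein holds cells back from S phase and is bound by the SV40 large T antigen, together with Bap1, a nuclear deubiquitinase, and Pbrm1, a subunit of a SWI/SNF chromatin remodelling complex. When a cell loses or gains a copy of a chromosome, the RNA of many of its genes moves with copy number while the RNA of others does not, because genes differ in how their output is regulated. Array RNA values do not measure DNA copies, and no DNA was measured here. In bulk tumours, fewer cells of a type and less RNA per cell cannot be told apart.

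For each gene and tumour a shift was computed, which is the log2 value minus the median of all genes on that array, minus the median of the gene over the 27 tumours. A shift of -1 is a halving. P803 and P912 were singled out with their values known, and with a single array each there is no replicate of either, so the shifts below are descriptions with no test. A member was counted as low in both tumours when its shift was -0.3 or less in both P803 and P912. It was counted as not lowered in either when its shift was 0 or more in both.

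The sequences below belong to members at either end of that range. The promoter windows are the 250 bases before the RefSeq start of Pbrm1 and Gnl3, neighbours that were low in both tumours, and of Dock9, the member not lowered in either tumour with the highest mean shift among those with a window in the table. Capitals mark CG dinucleotides, the site of DNA methylation in mammals. The Pbrm1 window lies at chr14:31018888-31019137 on the plus strand of GRCm38.p6, the Gnl3 window at chr14:31019132-31019381 on the minus strand and the Dock9 window, the first of 3 listed, at chr14:121698418-121698667 on the minus strand.
Pbrm1: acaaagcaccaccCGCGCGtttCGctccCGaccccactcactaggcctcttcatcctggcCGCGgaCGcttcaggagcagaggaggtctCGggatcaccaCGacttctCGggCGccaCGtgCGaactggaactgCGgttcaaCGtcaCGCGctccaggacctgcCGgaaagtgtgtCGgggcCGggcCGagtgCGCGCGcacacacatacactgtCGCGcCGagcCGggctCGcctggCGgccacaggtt
Gnl3: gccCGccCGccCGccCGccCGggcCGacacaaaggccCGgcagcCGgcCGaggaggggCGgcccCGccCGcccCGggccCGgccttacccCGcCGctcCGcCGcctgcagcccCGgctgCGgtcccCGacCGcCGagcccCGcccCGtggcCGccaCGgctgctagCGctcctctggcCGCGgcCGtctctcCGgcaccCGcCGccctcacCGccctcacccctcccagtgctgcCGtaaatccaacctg
Dock9: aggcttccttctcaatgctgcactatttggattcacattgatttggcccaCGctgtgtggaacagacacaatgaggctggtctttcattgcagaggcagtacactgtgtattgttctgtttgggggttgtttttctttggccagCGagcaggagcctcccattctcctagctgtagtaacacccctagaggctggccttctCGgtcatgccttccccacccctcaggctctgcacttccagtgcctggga
The Pbrm1 window holds 31 CG dinucleotides, the Gnl3 window 36 and the Dock9 window 3. The Pbrm1 and Gnl3 windows overlap by 6 bases on opposite strands, so these genes are read in opposite directions from adjoining starts.

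Among microRNA genes, Mir15a was low in both tumours and its cluster partner Mir16-1 lay below the level limit. Their 5-prime arms, from RefSeq (GRCm38.p6, chr14:61632075-61632096 and chr14:61631936-61631957 on the minus strand) and with the seed (bases 2 to 8) in capitals, are shown with Mir687, also low in both tumours (chr14:73206808-73206829, minus strand), and Mir346, not lowered in either (chr14:34894624-34894646, plus strand).
miR-15a-5p: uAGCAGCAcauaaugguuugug
miR-16-5p: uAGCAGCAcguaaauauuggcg
miR-687: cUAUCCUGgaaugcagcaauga
miR-346-5p: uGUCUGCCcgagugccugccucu
The first pair share the seed AGCAGCA, and microRNAs with the same seed can pair with overlapping sets of target RNAs, while the other seeds printed differ. Mir15a had a log2 level of 8.82 in P803 and 8.96 in P912, against a lowest value of 8.25 in P569, a median of 10.01 and a highest value of 10.95 in P619. Both tumours lay in the lower part of that range without being its lowest. The shifts of Mir15a were -1.23 and -1.08. Mir687 had shifts of -1.11 and -0.51, Mir3075 of -0.27 and 0.03, Mir346 of 0.47 and 0.22, and Mir598 of 0.29 and 0.15 (P803 first in each case). Mir16-1, with a mean level of 5.62, had shifts of 0.29 and -0.22. The array rows carry the gene symbols of these microRNAs and cannot tell a mature microRNA from its precursor.

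The chromosome 14 members were lower in P803 and P912 than in the other tumours. Their median shift was -0.51 in P803, with quartiles of -0.86 and -0.15, and -0.27 in P912, with quartiles of -0.51 and -0.00. In the other 25 tumours the median shift lay between -0.21 (P219) and 0.13 (P1225), with a median of 0.01 and an SD of 0.08. At this level limit P803 and P912 lay outside the range of the other 25. Over all 797 chromosome 14 genes with a row, without the limit, the medians were -0.18 in P803 and -0.08 in P912, within the range of the other 25 (-0.22 to 0.08). The genes of the other chromosomes at or above the same level limit had a median shift of -0.01 in P803 and 0.00 in P912, but of -0.22 in P219 and -0.10 in P425. Subtracting that value left -0.50 in P803, -0.27 in P912 and, as the next lowest, -0.08 in P569.

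**Figure D1:**
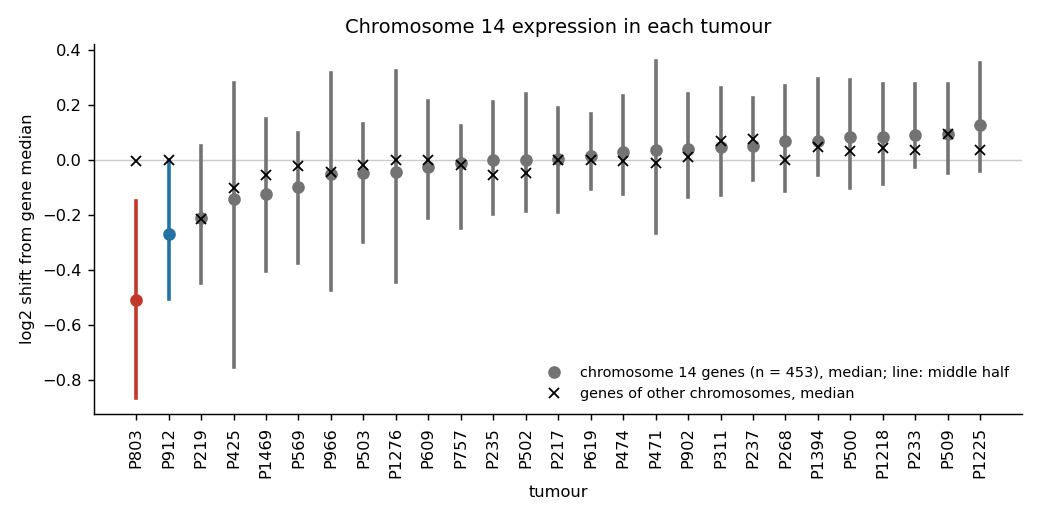
Median log2 shift of the 453 chromosome 14 members in each of the 27 tumours, with lines from the lower to the upper quartile and crosses for the genes on other chromosomes. P803 (-0.51) and P912 (-0.27) lie lowest for chromosome 14, and P219 (-0.21) is lowest for the genes of other chromosomes too (-0.22).

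Among the members, 374 (82.6%) had a shift below 0 in P803, where 51.8% of all 13002 genes tested did. In P912 it was 340 (75.1%), where 50.8% of all genes did. A shift of -0.3 or less was found for 289 members (63.8%) in P803, against 27.6% of all genes, and for 213 (47.0%) in P912, against 16.9%. A shift of -1 or less was found for 93 members in P803, with 6.1% of all genes, and for 11 in P912, with 1.17%. Fewer members lay high, with a shift of 0.3 or more for 30 in P803 (22.3% of all genes) and 31 in P912 (13.5%). P803 held the lowest shift of the 27 tumours for 118 members, where it did so for 5.68% of all genes. P912 held it for 46, where the share of all genes was 2.08%.

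For 31 members P803 and P912 were the 2 lowest of the 27 tumours by shift, which was the case for 0.431% of all genes. Ktn1, which encodes the kinesin-binding membrane protein kinectin, had levels of 6.54 in P803 and 6.88 in P912, and the other 25 tumours ranged from 7.05 over a median of 7.85 to 8.32. Cog3, a subunit of the Golgi tethering complex COG, had 7.57 and 7.90, against 8.02 to 8.92 in the others. Wapl, which releases cohesin from chromosomes, had 8.61 and 8.74, against 9.02 to 9.82. In each of these 3 genes both tumours lay below the other 25 without overlap. Psmd6, a subunit of the proteasome's regulatory particle, had nearly equal levels of 8.57 and 8.56, with the others at 8.77 or above. Slc25a37, the mitochondrial iron importer mitoferrin, had 7.66 and 7.50, with the others at 7.88 or above.

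Other chromosomes did not show a median as low in both tumours. The lowest median on another autosome was that of chromosome 19, at -0.21 in P803 and -0.14 in P912. The highest was 0.05 in P803, on chromosome 8, and 0.18 in P912, on chromosome 13. Of the 513 medians of 19 autosomes in 27 tumours, chromosome 14 in P803 was the lowest and chromosome 14 in P912 ranked 5. The medians between them were those of chromosome 18 in P219 (-0.29) and P425 (-0.28) and of chromosome 13 in P425 (-0.29). The SD of the chromosome 14 median over the 27 tumours, 0.135, ranked 3 from the highest of the autosomes. Over the 25 tumours without P803 and P912 it was 0.082 and ranked 12. Chromosome 14 was taken up with its low values in these tumours known, so its ranks describe that choice and are not separate support.

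**Figure D2:**
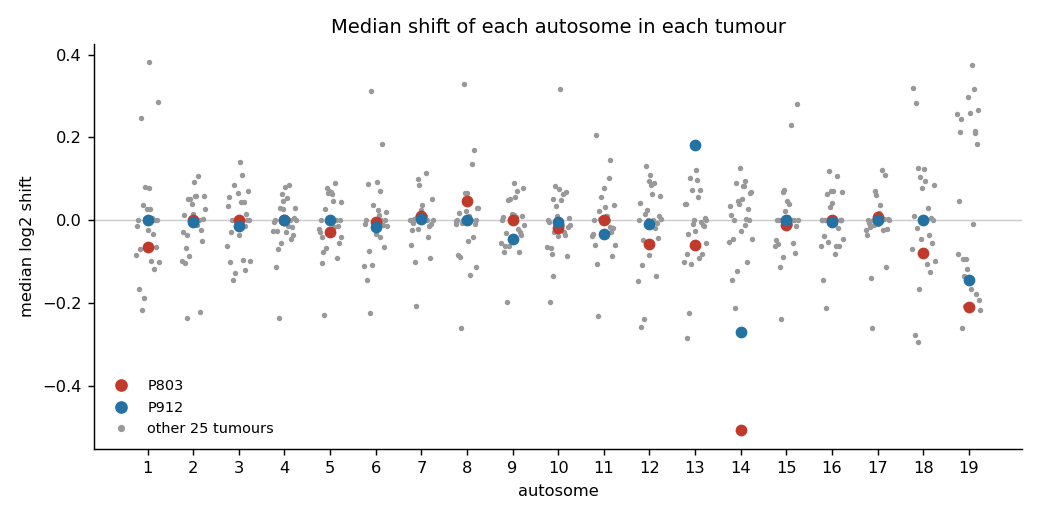
Median log2 shift of the genes of each chromosome in the 27 tumours, with P803 and P912 marked. Chromosome 14 is the chromosome on which P803 (-0.51) and P912 (-0.27) both lie below the other 25 tumours.

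The lower values ran along the length of the chromosome in P803. Members were put in RefSeq order, from the centromere end, and cut into 5 blocks of 90 or 91. In P803 the block medians were -0.53 (Gm2888 to Stimate), -0.57 (Mustn1 to Ndrg2), -0.31 (Arhgef40 to Setdb2), -0.51 (Cab39l to Mir687) and -0.62 (Itm2b to Fgf14). In P912 they were -0.26, -0.32, -0.24, -0.21 and -0.32 in the same order. P803 lay below the other 25 tumours in all 5 blocks. P912 lay below the other 25 in the first 3 blocks, whereas 2 of them were lower in the fourth, with P219 lowest at -0.25, and 1 was lower in the fifth, P425 at -0.43.

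A running median over 25 consecutive members gave 429 windows. In P803 it was below 0 in 429 of them, from -0.98 over the stretch from Mtrf1 to Kctd12 to -0.05 over the stretch from Parg to LOC432842. In P912 it was at or above 0 in 4 windows and below 0 in the rest, from -0.58 over Pde12 to Stab1 to 0.05 over Slc18a3 to Prxl2a. The windows nearest 0 in the 2 tumours therefore overlapped. The lowest window of P803 was also the lowest of P425, at -1.02, but P425 reached 0.47 over Thtpa to Nfatc4 and was below 0 in 279 windows.

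**Figure D3:**
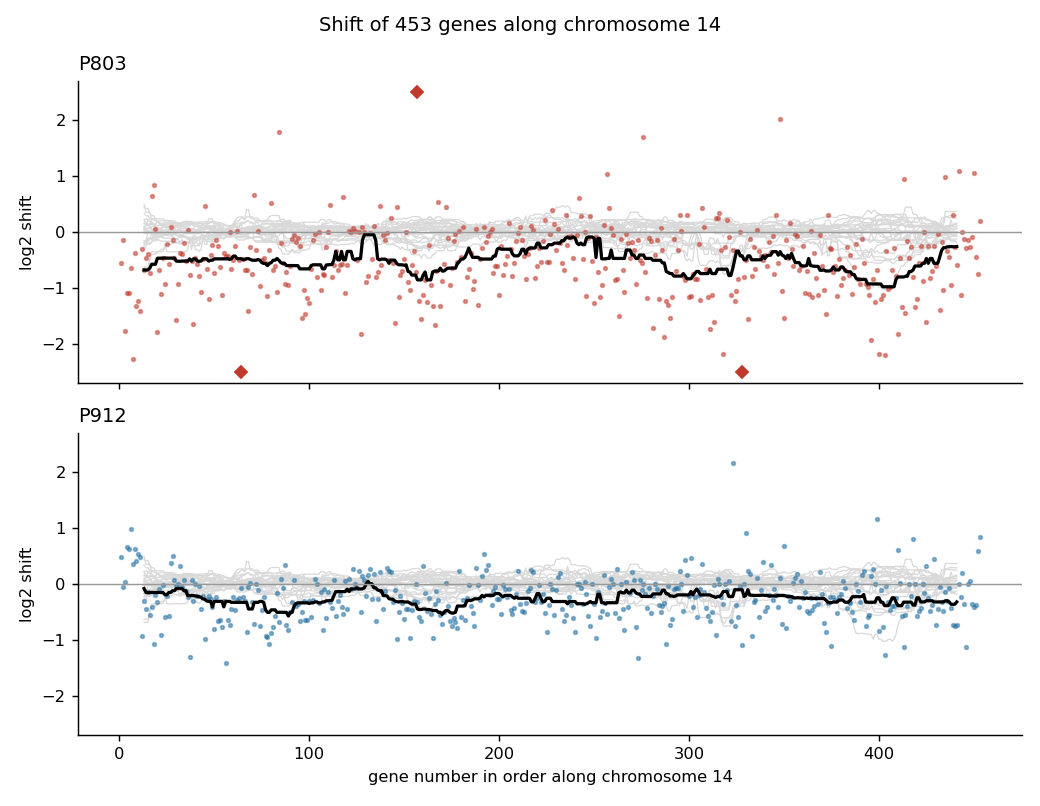
Log2 shift of each of the 453 members in chromosomal order (points) in P803 and P912, with the running median of 25 members (black) over the running medians of the other 25 tumours (grey), and diamonds for values beyond 2.5 in size. The black line stays below 0 in 429 of 429 windows in P803 and reaches 0 or more in 4 in P912.

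At the centromere end the tumours differed. The first 11 members are Lamtor3-ps and genes with Gm and Rik symbols, many of them possibly near-identical copies whose rows may not be told apart, and they are named here after their values were seen. P803 was below 0 in 11 of 11, with a median of -1.09, while P912 was above 0 in 10 of 11, with a median of 0.48. Of all members, 82.6% were below 0 in P803 and 75.1% in P912. Other tumours differed at this end too. The window of the first 25 members was the highest of P1218 (0.50), P1225, P1394 and P609. It was the lowest of P219 (-0.63), P474, P235 and P902.

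In all, 153 members (33.8%) were low in both tumours, where 6.41% of all genes tested and 5.43% of the genes off chromosome 14 were. On the other autosomes the share ran from 1.96% on chromosome 13 to 17.4% on chromosome 19. A further 52 members were at -0.3 or less in P803 and at 0 or more in P912 (12.3% of all genes), and 27 showed the opposite (7.64% of all genes). There were 32 members (7.06%) not lowered in either tumour, where 24.4% of all genes were at 0 or more in both. The remaining members lay between. Just inside the limit for low in both lay Mbnl2, a splicing regulator, at -0.33 and -0.30. Just outside lay Snord69, at -1.03 and -0.2999. Just inside the limit for not lowered in either lay Syt15, at 0.00 and 0.06, and just outside lay Arhgap22, at -0.00 and 0.23.

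The members low in both tumours were spread along the chromosome, with 31, 34, 26, 29 and 33 in the 5 blocks. Those not lowered in either numbered 1, 10, 9, 9 and 3. Of the 153, 94 lay in 36 runs of at least 2 adjacent members. With 33.8% of all members low in both, many would be adjacent in any order, and how many was not computed. The longest run, named after its values were seen, was Ndst2, Camk2g, Plau, Vcl and Ap3m1, which encode a heparan sulphate enzyme, a calcium-dependent kinase, urokinase, vinculin and an adaptor of vesicle transport. The members not lowered in either formed 5 pairs of neighbours, and 22 stood alone.

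The growth regulators lay lower in both tumours, as the chromosome 14 members did as a whole. The group described here had 13 members. Its median shift was -0.50 in P803 and -0.40 in P912, close to or below that of the whole chromosome, and the other 25 tumours had list medians from -0.16 to 0.40. In P803, 10 of 13 were at -0.3 or less, in P912 7 of 13, and 5 were low in both. The shares of all members were 63.8%, 47.0% and 33.8%. Rb1 had log2 levels of 9.75 in P803 and 9.95 in P912, against 9.22 (P425), 10.40 and 10.89 as the lowest, median and highest of the 27 tumours. Its shifts were -0.70 and -0.48, which ranked 3 and 5 from the lowest of the 27, so both tumours overlapped the low end of the others. Pbrm1 had 8.79 and 9.60, against a median of 10.21 and a highest value of 10.58. P803 was its lowest tumour, at 0.36 times the median of the gene, and P912 ranked 3 from the lowest, at 0.64 times.

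Bap1 parted the tumours, with 8.62 in P803, its lowest value, and 9.51 in P912, where the shifts were -1.04 and -0.14. Dach1, a transcriptional repressor in the retinal determination network, had the lowest mean shift of the group, with levels of 6.60 and 7.52 against a median of 8.73. P1469 lay lower still, at 5.75. Elf1, an ETS-family transcription factor, had shifts of -0.98 and -0.59. Tnfrsf10b, a death receptor for TRAIL, had -0.34 and -0.59. Lats2, a Hippo pathway kinase, was low in P803 (-0.85) and not in P912 (0.26), as was Egr3, an immediate early transcription factor, at -0.50 and 0.39. Klf5, an epithelial transcription factor, had -0.29 and -0.40, and Spry2, an inhibitor of receptor tyrosine kinase signalling, -0.25 and -0.43.

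Genes of cell division had the lowest list median, -1.16 in P803 and -0.58 in P912, over 13 members of 15 listed genes. Most of these members had mean levels in the range of the brightest 151 members (8.45 to 11.96), whose medians were -0.66 and -0.41. All 13 were at -0.3 or less in P803 and 11 were in P912, with 11 low in both. The shares of all members were 63.8%, 47.0% and 33.8%. P425 was lower on the same list, at -1.69. Of the 6 mitosis markers on other chromosomes 5 were below 0 in P803 and 4 in P912, with a mean shift of -0.58 in P803, -0.23 in P912 and -1.98 in P425, and their part in the result was not tested. Diaph3, a formin that assembles actin filaments, had levels of 6.42 in P803 and 7.74 in P912, against 7.40 to 9.06 in the other 25. P803 alone lay below that range. Ska3, a part of the kinetochore complex that holds microtubules, had 7.14 and 8.02, with P425 lowest at 6.08 and a median of 8.60. Gnl3, or nucleostemin, a nucleolar GTPase, had 6.84 and 7.86 against a median of 8.37, and P803 was its lowest tumour. Esco2, which acetylates cohesin in S phase, had shifts of -1.74 and -0.66. Pbk, a mitotic kinase, had -1.16 and -0.58, and Cdca2, which targets phosphatase to chromatin, -1.24 and -0.75. Parp2, which responds to DNA breaks, was the listed gene lower in P912 (-0.75) than in P803 (-0.65). Mzt1, a component of the gamma-tubulin complex, had the highest mean shift of the list, at -0.34 and -0.03. Ccnb1ip1 lay below the level limit and Apex1 had no row that named it alone.

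Neuronal and neuroendocrine genes parted the tumours. The median over 19 members of 21 listed genes was -0.75 in P803 and 0.00 in P912. Most of these 19 had mean levels from 5.81 to 7.21, the range of the dimmest 151 members. Those 151 had medians of -0.16 in P803 and 0.00 in P912, and the part of level in the list median was not tested. The other 25 tumours had list medians from -0.97 (P425) to 0.48 (P609), with 3 of them below P803 and 11 below P912. In P803 12 members were at -0.3 or less and in P912 4, where 63.8% and 47.0% of all members were. Of the 19, 3 were low in both, where 33.8% of all members were, and 11 were at 0 or more in P912. The neuroendocrine markers on other chromosomes had a score of 0.50 in P803 and 0.25 in P912 (range of the other 25, -3.30 to 0.63). Of these markers 2 of 7 were below 0 in P803 and 4 of 7 in P912, where 51.8% and 50.8% of all genes were. Among them Pcsk1, a prohormone convertase, had shifts of 4.39 and 0.07, and Stmn2, a neuronal stathmin, had -2.97 and 2.54. The part of these markers in the result was not tested. Nefl, the light neurofilament, had levels of 4.61 in P803 and 6.68 in P912, within a range from 4.17 (P471) over 7.72 to 11.04 (P235). Its SD of 2.01 was the largest of the members. Stmn4, a stathmin that binds tubulin, had shifts of -2.18 and -0.36, and Pcdh9, a protocadherin, -1.14 and -0.77. Nalcn, the sodium leak channel, had -0.75 and 0.58, Cacna1d, an L-type calcium channel, -0.93 and 0.33, and Pou4f1, a sensory neuron transcription factor, -0.81 and 0.81. Pcdh17, another protocadherin, had the highest mean shift of the list, at -0.68 and 1.16. Dpysl2, an axon growth protein, had 11.92 and 12.18 against a median of 12.16.

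Protein turnover and folding had 14 members of 15 listed genes, with medians of -0.68 and -0.45 and other tumours from -0.32 to 0.26. In P803 11 were at -0.3 or less, in P912 10, and 8 were low in both. The shares of all members were 63.8%, 47.0% and 33.8%. The proteasome genes Psmc6 (-1.17 and -0.50), Psmd6 (-0.58 and -0.57) and Psmb5 (-0.31 and -0.47) were low in both tumours. The activator subunits Psme1 (-0.32 and -0.11) and Psme2 (-0.20 and 0.20), which are induced by interferon, were not. Uchl3, a deubiquitinase, had the lowest mean shift, at -1.35 and -0.57. Ipo5, a nuclear import receptor, had -0.95 and -0.43, and Sugt1, a co-chaperone, -1.14 and -0.55. Ctsb, a lysosomal protease, was lowest in P803, at 10.12 against 10.39 to 11.78 in the other 25, with 10.74 in P912.

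RNA and translation genes had 16 members of 18 listed, with medians of -0.78 and -0.36, below those of the whole chromosome. Most of the 16 had mean levels in the range of the brightest 151 members (8.45 to 11.96). Those 151 had medians of -0.66 in P803 and -0.41 in P912, so the list was not below them in P912. Of the 16, 15 were at -0.3 or less in P803, 10 in P912 and 10 in both. The shares of all members were 63.8%, 47.0% and 33.8%. Rbm26, an RNA-binding protein, had the lowest mean shift (-1.20 and -0.58). Med4, a Mediator subunit, had -1.16 and -0.46, Supt16, a subunit of the histone chaperone FACT, -1.01 and -0.52, and Dis3, the catalytic exosome subunit, -0.98 and -0.47. Zmym5, a zinc finger protein, had levels of 8.81 and 9.26 against a median of 9.76, with P803 lowest of the 27. Rpl15, a ribosomal protein, had the highest mean shift (-0.39 and -0.06). Rpgrip1 lay below the level limit, and Thoc1 lies on another chromosome.

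Mitochondrial and metabolic genes had 12 members of 15, with medians of -0.35 and -0.38, and P803 was there not the lower of the 2. In each tumour 7 were at -0.3 or less, and 3 were low in both, namely Slc25a30, a mitochondrial carrier (-1.47 and -0.86), Slc25a37 (-0.78 and -0.92) and Sucla2, a citric acid cycle enzyme subunit (-0.39 and -0.40). Of all members, 63.8% were at -0.3 or less in P803, 47.0% in P912 and 33.8% in both. The carrier Slc25a30 had levels of 6.46 in P803 and 7.05 in P912, against 7.15 to 9.59 in the others. Glud1, glutamate dehydrogenase, had -0.89 and -0.22, and Ghitm, an inner membrane protein, -0.05 and -0.44. Pck2, the mitochondrial enzyme that makes phosphoenolpyruvate, was at 0.40 and -0.08. Mat1a, the liver-type methionine adenosyltransferase, lay below the limit with shifts of 1.69 and -0.04, and P803 was its highest tumour, at 6.65.

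Genes of immune cells and stroma had 10 members of 18 listed, and 6 of the others lay below the level limit. Their medians were -0.90 and -0.34, with 8 at -0.3 or less in P803, 6 in P912 and 5 in both. The shares of all members were 63.8%, 47.0% and 33.8%. Macrophage markers on other chromosomes were below 0 in 6 of 6 genes in P803 and 5 of 6 in P912, where 51.8% and 50.8% of all genes were. Their score was -1.43 in P803, lowest of the 27 tumours, and -0.33 in P912, which ranked 8 from the lowest. The other 25 tumours had macrophage scores between -0.60 and 1.43. The fibroblast and matrix score was -1.25 and -0.64, with the other 25 between -1.28 and 1.48, and their part in the result was not tested. Prkcd, protein kinase C delta, had -0.95 and -0.82, Irf9, a mediator of interferon signalling, -0.69 and -0.66, and Bmp1, a procollagen protease, -1.05 and -0.71. Lcp1, the leukocyte actin bundler, had -1.14 and -0.35. Ptk2b, a focal adhesion kinase relative, was the member of these lists not lowered in either tumour, at 0.35 and 0.00.

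**Figure D4:**
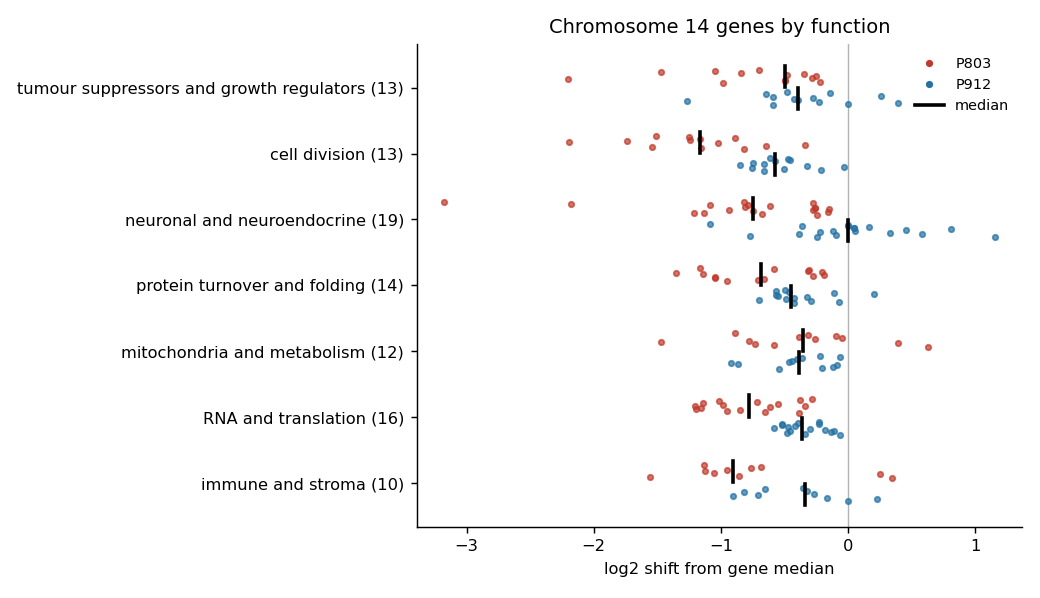
Log2 shift of each listed member in P803 and P912, by functional group, with the median of each group marked. The cell division genes lie lowest, with medians of -1.16 and -0.58. The neuronal genes have medians of -0.75 in P803 and 0.00 in P912, both within the range of the other 25 tumours.

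Epithelial markers also differed between the tumours. The luminal markers had a score of 3.51 in P803 and -0.70 in P912, with the other 25 tumours between -0.94 and 3.85, and their mean log2 level was 10.8 in P803 and 6.55 in P912. The smooth muscle score was -0.22 and -0.07, the skeletal muscle score 0.59 and -0.15, the endothelial score 0.21 and -0.17, the T cell score -0.08 and 0.15, the B cell score 0.08 and 0.49 and the adipocyte score -0.39 and -0.04. The endothelial score of P803 rested on Vwf, at 3.92, while the other 5 of its 6 genes were below 0. None of the marker genes lies on chromosome 14.

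The members not lowered in either tumour were mostly dim. Their median level was 6.46 and 23 of 32 (71.9%) lay below 7, against 131 (28.9%) of all members and 20 of 153 (13.1%) of those low in both, whose median level was 8.50. The 9 at 7 or above, named after their values were seen, were Prrxl1, Gprin2, Prxl2a, AY358078, Snord8, Rabggta, Atp8a2, Dock9 and Fgf14. Phyhip, which interacts with the peroxisomal enzyme phytanoyl-CoA hydroxylase, had a level of 8.18 in P803, its highest of the 27, and 6.25 in P912, with the other 25 between 5.77 and 7.29. Atp8a2, a phospholipid flippase, had 9.30 and 7.60 against a median of 7.54. Dock9, a guanine nucleotide exchange factor for Cdc42, had 8.31 and 7.21 against 7.20, so in both genes P803 was high and P912 near the middle. Fgf14, which modulates sodium channels, had 9.03 and 9.66 against 8.76 and was the reverse.

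Some members were high in 1 of the tumours. Gch1, the first enzyme of tetrahydrobiopterin synthesis, had a level of 9.02 in P803 and 5.56 in P912, while the other 25 lay between 4.87 and 7.16, so P803 stood above the rest. Cacna2d3, a calcium channel subunit, had shifts of 1.79 and -0.68. Ebf2, a transcription factor of brown adipocytes and neurons, had -0.33 and 2.17. In the other direction Kcnma1, the large-conductance potassium channel, had 4.80 in P803, its lowest of the 27, and 7.47 in P912, near its median of 7.58. Mapk8, the stress kinase JNK1, was low in both, at -1.83 and -0.51.

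The size of the shift went with level. The members were split by mean level into 3 sets of 151. In the set with the lowest levels (5.81 to 7.21) the median shift was -0.16 in P803 and 0.00 in P912, in the middle set (7.25 to 8.43) it was -0.55 and -0.30, and in the highest set (8.45 to 11.96) it was -0.66 and -0.41. Genes of other chromosomes in the same ranges had medians of 0.03 and 0.01, 0.00 and -0.01, and -0.08 and -0.03. From the lowest set to the highest, 22, 51 and 80 were low in both tumours and 24, 6 and 2 were not lowered in either. Dim rows hold more array background, which compresses differences, and whether that set the smaller shift of the dim members was not tested.

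**Figure D5:**
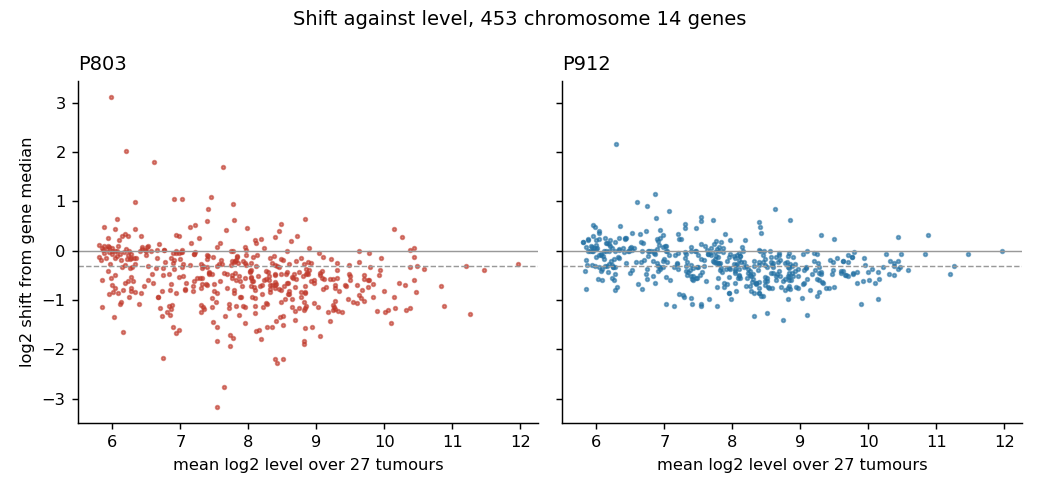
Log2 shift of the 453 members in P803 and P912 against their mean log2 level over the 27 tumours, with lines at 0 and -0.3. The points spread around 0 at levels near 6 and lie mainly below 0 at higher levels.

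Members that vary little from tumour to tumour were low as well. Split in the same way by the median absolute deviation (MAD) over the other 25 tumours, the set with the smallest MAD had median shifts of -0.38 in P803 and -0.23 in P912, and 84.8% and 75.5% of the members lay below 0. In the most variable set the medians were -0.75 and -0.27, and there the genes of other chromosomes had -0.16 and -0.03.

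The sequence windows gave a feature that the choice of members did not use. Of the 453 members 338 had a RefSeq window of 300 bases. The median number of CG dinucleotides in the window was 18 (quartiles 13 and 26) for the 117 members low in both tumours, 15 for the 203 in between and 8 (4.25 and 12.5) for the 18 not lowered in either, against 6 over all 27025 windows of the table. The letters TATAAA, searched on both strands, were found in 6.84% of the first set, 4.93% of the second and 0 of the 18 of the third, against 5.33% of all members with a window and 12.97% of all windows. The sets differ in level too, and the part of level in this difference was not tested. All 27025 windows were taken without a level limit, whereas the members had passed one. The values for all windows are therefore not from a like set of genes.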

How the data were processed

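Total RNA of 27 snap-frozen tumours was biotin labelled and hybridised to 1 GeneChip array each, per the labels' protocols. The authors deposited log2 values in 41345 rows. Partek is named in the submitters' processing notes, but background correction, summarisation, normalization and build are not given in the labels or notes read here. Array medians lay between 5.67 and 5.82 and values between 1.68 and 14.5. Precision is limited by having 27 arrays, with none repeated within a tumour.

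Of the rows, 23521 named a single gene and 1814 several, and the latter were not used. For the 1082 genes with several rows the highest-mean row represented the gene, and 22139 of 22180 genes were matched to RefSeq. Shifts, running medians of 25 members and counts were computed with Python 3.11.15, numpy 2.4.6 and pandas 2.3.3, and the script was tested on simulated data. A score is the mean shift of a marker list. The members, lists and limits were chosen with earlier results of these data known. Named genes were the listed genes, the 10 members with the lowest and the 10 with the highest mean shift of P803 and P912, the 10 with the largest SD, Ska3, Gnl3, Mat1a and Zmym5, and members next to a limit. Symbols of Rik, Gm, LOC, BC or accession form were left out of the ranked sets. Alternatives covered centring, level limit, reference, rows of a gene, shift limits and window. No comparison between groups was possible, so no test was run.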

Additional observations from a re-analysis of the deposited data

How the results depend on the processing

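The median shift of chromosome 14 stayed between -0.59 and -0.46 in P803 and between -0.35 and -0.24 in P912 under other centring, quantile normalization, other reference levels, other row choices, a level limit of 7 and protein-coding members alone. Without a level limit it was -0.18 in P803 and -0.0766 in P912, and both then lay within the range of the other 25 tumours (-0.22 to 0.08), so the separation of the 2 tumours did not hold. Among the 151 members with the lowest MAD, an alternative chosen after seeing the data, it was -0.38 in P803 and -0.23 in P912. The count of members low in both tumours was 42 in that set, 76 with a limit of -0.5, and 131 to 207 otherwise. The count not lowered in either was 144 without a level limit, 9 with a level limit of 7, 11 in the lowest-MAD set, 10 with a limit of 0.1, 53 with a limit of -0.1, and 25 to 40 otherwise. With the level limit of 7 the members numbered 322, and the share not lowered in either was 2.80%, against 7.06% of 453. The reference without P425, P219 and P268 and the protein-coding members were also added after seeing the data. No value changed sign. No paired analysis was possible because the tumours form 1 group and share no replicate numbers.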

Other observations

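Some members varied widely among tumours other than P803 and P912. Bmp4, a ligand of the BMP family, had a median level of 6.06 and a highest shift of 4.95, in P966. Slc7a8, an amino acid transporter, had a median of 6.58 and reached 11.12, also in P966. Pou4f1 reached 10.58 in P219, Clu, a secreted chaperone, 10.20 in P219, and Olfm4, a secreted glycoprotein of epithelial crypts, 9.49 in P235. In P803 and P912 the levels of these genes ran from 5.51 (Olfm4 in P803) to 7.48 (Pou4f1 in P912).

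Low stretches of the chromosome were also seen in other tumours. The lowest running median of 25 members was -0.76 in P1276 and -0.70 in P966, both over the stretch from Fzd3 to Adamdec1, and -0.63 in P219 over the first 25 members. P219 was below 0 in 419 of 429 windows, and its genes on other chromosomes were lower too, at -0.22.

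Adjacent members correlated over the 27 tumours with a median r of 0.243, which ranked 4 of the 19 autosomes, and members at least 100 places apart with 0.109. Over the 25 tumours without P803 and P912 these were 0.188 and 0.050. The points share arrays and the same tumours, so this is a description.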
